A study of Mus musculus with 2 samples.

Results

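The 8 genes described here encode 7SK RNA (Rn7sk), the 4 proteins that package it (Hexim1, Hexim2, Larp7 and Mepce) and the kinase and cyclin subunits of P-TEFb (Cdk9, Ccnt1 and Ccnt2). They were chosen by gene symbol alone, and all 8 were found among the 55536 annotated genes. Their RNA was measured in nuclei of bone marrow-derived macrophages, primary cells grown from the marrow of C57BL/6J mice. The cells had received Lipid A, the membrane anchor of lipopolysaccharide, for 30 min at a dose of 100 ng/ml. Some labels call the material the nucleoplasmic fraction, and others call it nuclear. Ribosomal RNA was depleted before total RNA sequencing. The study had 1 group of 2 libraries, made from 1 µg of RNA for replicate 1 and from 500 ng for replicate 2. Both libraries cite 1 donor entry and separate biosamples. They are labelled biological replicates, but separate cultures are not stated, and the difference between replicates may therefore be technical. An unstimulated sample was not analysed here, so every value is a level after stimulation. A ratio between the libraries compares those libraries, and no p-value is given.

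P-TEFb is the kinase that lets RNA polymerase II leave its pause just downstream of a promoter. It phosphorylates the pausing factors NELF and DSIF and the tail of the polymerase. Much of the cell's P-TEFb is held inactive on 7SK, a short nuclear RNA made by RNA polymerase III, where HEXIM proteins block the kinase. Larp7 binds the 3′ end of 7SK, and Mepce puts a methyl cap on its 5′ end. In macrophages, release from this store and from promoter pausing is known as a step in switching on early inflammatory genes.

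The sequences of 7SK and of its closest annotated copies are shown because reads from the copies could be counted for 7SK, or the reverse. They were read from the GENCODE M21 transcripts on GRCm38. Rn7sk (ENSMUSG00000065037.1) lies on chromosome 9 from 78175303 to 78175633 on the minus strand and is a single exon of 331 bases, of which the first 300 are printed (chr9:78175334-78175633). Capitals in Rn7sk mark every GATC. This is the DNA spelling of GAUC, and HEXIM proteins are known to bind GAUC repeats in the first hairpin of 7SK. Which of the marked copies are bound is not shown here. Capitals in Gm24447 and Gm26315 mark the longest run that each shares exactly with Rn7sk, followed by the next 20 bases (chr15:93234363-93234623, plus strand, and chr2:7076156-7076414, minus strand).
Rn7sk: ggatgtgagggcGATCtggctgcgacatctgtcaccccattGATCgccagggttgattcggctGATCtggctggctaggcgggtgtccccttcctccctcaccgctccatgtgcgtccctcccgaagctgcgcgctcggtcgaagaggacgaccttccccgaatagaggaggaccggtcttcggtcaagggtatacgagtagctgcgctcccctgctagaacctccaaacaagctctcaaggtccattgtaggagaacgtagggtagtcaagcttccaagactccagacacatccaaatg
Gm24447: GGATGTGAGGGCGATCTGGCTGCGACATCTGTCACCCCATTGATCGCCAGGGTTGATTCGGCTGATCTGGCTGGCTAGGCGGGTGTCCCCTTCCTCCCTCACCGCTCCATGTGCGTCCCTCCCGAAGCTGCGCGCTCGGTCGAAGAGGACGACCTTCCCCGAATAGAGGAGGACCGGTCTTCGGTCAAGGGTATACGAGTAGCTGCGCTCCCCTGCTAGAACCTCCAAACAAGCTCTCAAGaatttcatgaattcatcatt
Gm26315: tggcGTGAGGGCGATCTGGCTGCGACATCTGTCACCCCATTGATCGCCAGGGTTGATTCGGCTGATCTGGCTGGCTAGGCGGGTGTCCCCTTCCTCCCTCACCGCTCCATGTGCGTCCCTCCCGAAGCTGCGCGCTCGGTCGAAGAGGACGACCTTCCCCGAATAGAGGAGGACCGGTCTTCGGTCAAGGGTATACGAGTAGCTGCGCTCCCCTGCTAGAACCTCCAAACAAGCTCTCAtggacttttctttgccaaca

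GATC reads the same on both strands and was searched without overlap with any other motif. Counted from the 5′ end of Rn7sk, it stands at bases 13 to 16, 42 to 45 and 64 to 67. Of 129282 annotated transcripts at least as long as Rn7sk, 7.99% hold at least 3 GATC in their first 331 bases, the length of Rn7sk. In their first 70 bases, 0.0944% hold at least 3 and 16.3% hold at least 1. The 70-base window ends just past the third GATC of Rn7sk, so the share with at least 3 is no unbiased measure of rarity. A match is a description of the letters and not a measured binding site.

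The libraries held 16037242 and 14906686 expected counts, which are read counts that the deposited quantification shared out among overlapping or similar transcripts. TPM, a relative abundance with the same total in each library, corrects such counts for length and was used for levels. Of the 55536 annotated genes, 11523 (20.7%) were detected, meaning that both libraries gave a TPM of 1 or more. All 7 macrophage marker genes passed that limit, at mean levels of 28.6 to 1880 TPM. Their summed TPM was 2602 and 3339 in replicates 1 and 2. None of the 14 markers of B cells, T cells, neutrophils, erythroid cells or fibroblasts passed it, and the highest of their expected counts was 11. Cd79a, Cd3e, Cd3g and Hbb-bs were at 0 in both libraries, where a count of 0 allows up to 3 reads, or 1.89e-05% and 2.02e-05% of the annotated counts. These values are from the gene table. The second deposited transcript table gave more, such as 30.2 and 39.3 estimated counts for Cd3g and 149 and 94.2 for Col1a1. All 14 markers stayed below 1 TPM there. By the gene table, the neutrophil marker S100a8 reached 1.49 TPM in replicate 2 from 9 reads, against 0.22 TPM in replicate 1.

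All 8 genes were detected in both libraries, spanning Rn7sk at 190468 ± 95022 TPM (SD, n = 2) down to Hexim2 at 2.295 ± 1.32 TPM. Among the 7 protein-coding genes, Cdk9 was the highest, ahead of both cyclins, Hexim1 and Mepce, with Larp7 and Hexim2 the lowest. In the gene table that order was the same in both libraries. Each gene was separated there from the next in both values, except that Larp7 (3.51 and 2.05 TPM) overlapped Hexim2 (3.23 and 1.36 TPM). In the second transcript table, made directly from the reads, Hexim2 at 5.05 and 6.71 TPM lay above Mepce at 4.61 and 3.76 and level with Hexim1 at 5.25 and 6.17. There Ccnt1 and Ccnt2 were also close in replicate 1, at 25.3 and 24.8 TPM. The median of the 7 coding genes was 13.4 TPM, against 7.985 TPM over 9770 protein-coding genes with a mean of 1 TPM or more.

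**Figure D1:**
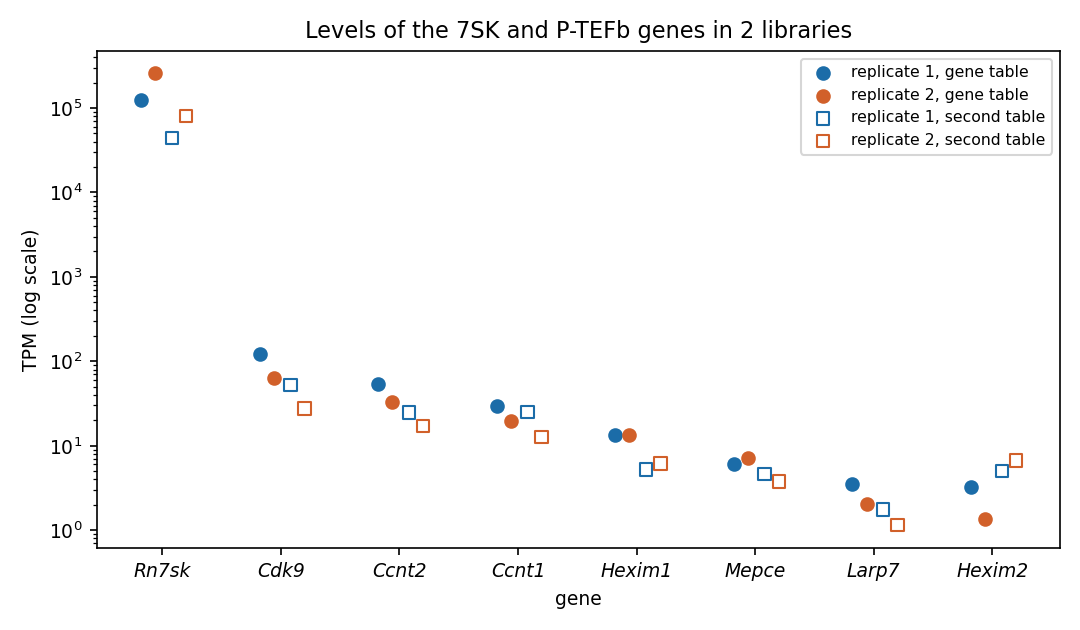
Level of the 8 genes in each library, in TPM on a log axis. Filled circles are from the deposited gene tables and open squares from the second transcript tables, each with 1 point per library. In the gene tables, Rn7sk sits at 123278 and 257659 TPM, and the 7 protein-coding genes lie between 1.36 and 123.10 TPM.

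7SK RNA was the most abundant annotated RNA by TPM in both libraries. Rn7sk had 229112 reads in replicate 1 and 693227 in replicate 2. These reads were 1.45% of replicate 1 (95% Wilson interval 1.44 to 1.45) and 4.66% of replicate 2 (4.65 to 4.67). Replicate 2 was therefore the high library, by more than counting error, and such intervals cover counting error only. In TPM the values were 123278 and 257659, equal to 12.4% and 25.8% of the TPM total. By reads it ranked the 3rd gene in replicate 1 and the 2nd in replicate 2.

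The share of TPM that 7SK took depended on the table. The gene table used an effective length of 108.57 bases in replicate 1 and 128.99 in replicate 2, well under the full 331 bases. The second transcript table used 119.515 and 174.845 bases. There Rn7sk stood at 44059 and 80067 TPM, or 4.41% and 8.01% of the total. The estimated counts in that table, 243978 and 910292, were again higher in replicate 2. The TPM of Rn7sk thus differed by more than 2-fold between the tables in each library, while the effective lengths differed by less. The part of length in this gap was not tested. The deposited TPM of Rn7sk also lay outside its own deposited credibility bounds, which ran from 114800 to 116029 in replicate 1 and from 242941 to 244534 in replicate 2. The level of those bounds is not stated. Lying outside the bounds was not particular to Rn7sk. The RNA of RNase P, Rpph1, stood at 29644.3 and 88624.7 TPM, above upper bounds of 28014.5 and 84233.3. Cdk9 stood above its upper bound in replicate 1 only, at 123.10 against 122.552, and Mepce lay within its bounds in both libraries.

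Between the libraries, 7SK differed more in scaled counts than the other 7 genes. On a log2 scale after TMM scaling, which sets the bulk of genes level, replicate 2 exceeded replicate 1 by 1.66 (95% exact counting interval 1.66 to 1.67), or 3.17-fold. The second transcript table gave 1.71. The ratio was higher than that of 99.3% of the 10444 genes with a mean of 50 counts or more. Over those genes the median log2 ratio was -0.03, and the 5th and 95th percentiles were -0.92 and 1.01. In deposited TPM alone the log2 ratio was 1.06 for Rn7sk and -1.25 for Hexim2. Rn7sk was the single member beyond 2-fold among the 7 at that count, against 8.99% of all genes beyond 2-fold in either direction, 5.2% higher in replicate 2 and 3.79% lower. Among 8989 nuclear protein-coding genes at that count 7.64% were beyond 2-fold, 5.16% higher and 2.48% lower, and none of the 6 coding members with enough counts was. Of those 6, 4 had ratios below 0 and 2 above, with a median log2 ratio of -0.28.

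**Figure D2:**
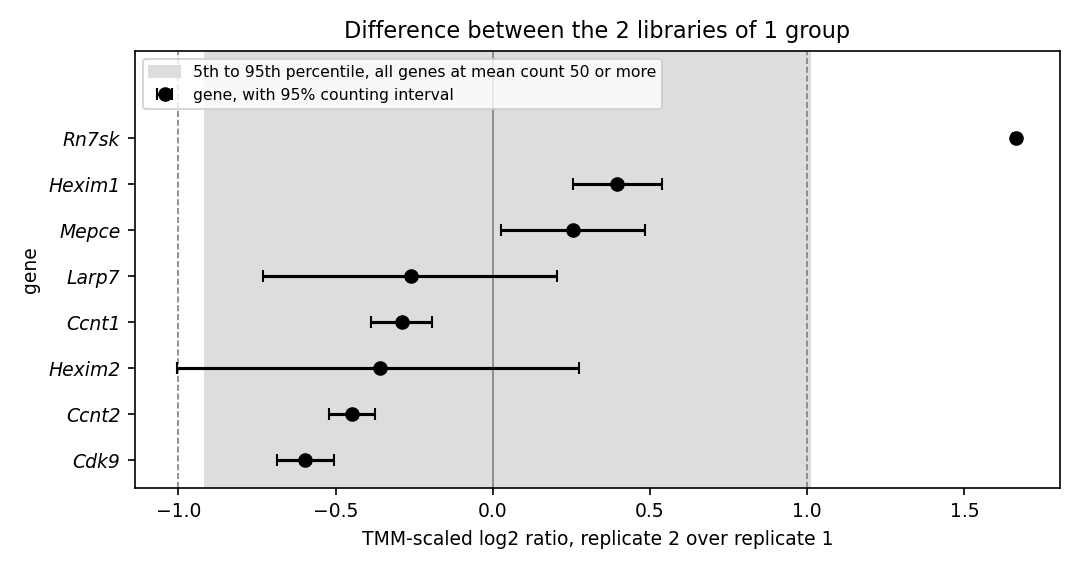
Log2 ratio of replicate 2 over replicate 1 after TMM scaling for the 8 genes, with 95% exact counting intervals. Rn7sk stands at 1.66, Cdk9 at -0.60, and the intervals of Hexim2 and Larp7 cross 0.

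The genes whose ratio lay nearest to that of 7SK were taken from 2532 others with a mean of 1000 counts or more. Gm28661, an unprocessed pseudogene, had 23801.6 and 70505.5 reads and a log2 ratio of 1.63. Its counts are not whole numbers, so some reads were shared out with other sequences, and their source was not tested. Fcer1g, the signalling chain shared by activating Fc receptors, had 706 and 2216 reads and a log2 ratio of 1.72. Zfp36l1, which promotes decay of mRNAs with AU-rich elements, had 1705 and 4943 reads and a log2 ratio of 1.60. Likeness here is over 2 libraries only. Of the 2533 genes at that count, 17 had a higher ratio than Rn7sk.

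Other short structural RNAs differed in how their libraries compared. Rpph1, the RNA of RNase P, had 49757 and 217701 reads, so that replicate 2 was higher by a log2 ratio of 2.19. Rn7s1 and Rn7s2, the RNA of the signal recognition particle, had 77957 and 86045 reads and 77957 and 93194 reads, at log2 ratios of 0.21 and 0.32. These are near-identical genes, and the split of reads between them is uncertain. Rmrp, the RNA of RNase MRP, has entries of the ribozyme and lincRNA classes that overlap on 1 strand. The ribozyme entry had 93648 and 108490 reads, a log2 ratio of 0.28. The lincRNA entry had 29507 and 13606 reads, a log2 ratio of -1.05, and how reads divided between these entries is likewise uncertain.

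Terc, the template RNA of telomerase, had 29 and 15 reads. The gene table could not measure the Y RNA genes Rny1 and Rny3, whose effective length there was 0, and their listed value of 0 gives no level. The vault RNA gene Vaultrc5 had an effective length of only 2.29 and 4.06 bases and 0 and 2 reads. In the second transcript table Rny1, Rny3 and Vaultrc5 held 4 and 15, 4 and 26, and 5 and 52 estimated counts. The labels give 250-400 as the library size range, and its part in the levels of these short RNAs was not tested. Of the 5 entries with a mean of 50 counts or more, Rpph1 was beyond 2-fold higher in replicate 2 and the Rmrp lincRNA entry lower, against 5.2% and 3.79% of all genes. Summed, the Rmrp entries held 123155 and 122096 reads.

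**Figure D3:**
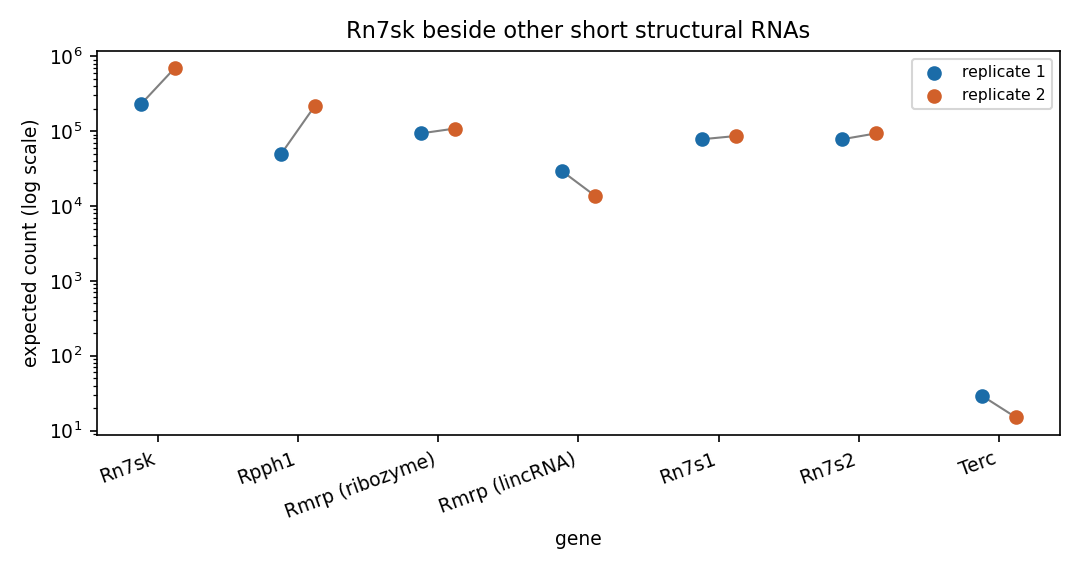
Expected counts of 7SK and other short structural RNAs in each library, on a log axis, with 1 point per library. Rn7sk and Rpph1 are higher in replicate 2, while Rn7s1, Rn7s2 and the Rmrp ribozyme entry lie close together.

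Copies of 7SK were given few of the reads. A search of all annotated transcripts found 186 genes with sequence like Rn7sk, of which 179 carry the class misc_RNA. Of these 179, 3 shared an exact run of at least 100 bases with it. Together the 179 held 156.73 reads in replicate 1 and 125.38 in replicate 2, equal to 0.0684% and 0.0181% of the reads of Rn7sk. In the second transcript table their sums were 1475 and 3232 estimated counts, or 0.604% and 0.355%. The part of shared reads in the ratio of Rn7sk was not tested.

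The closest copies show how the tables divided shared sequence. Gm24447 (chromosome 15, 93234363 to 93234700, plus strand) carries the first 241 bases of Rn7sk unchanged, as printed above, and then leaves it. It had 0 reads in both libraries of the gene table, and 118 and 295 estimated counts in the second. Gm26315 (chromosome 2, 7076094 to 7076414, minus strand) shares a run of 235 bases and had 0 and 14.38 reads, against 0 and 184 estimated counts. Gm26035, on chromosome X, shares a run of 109 bases and had 15.09 and 8 reads, against 302 and 736. A read from within such a run cannot be placed on either gene by its letters, so the values of these copies are uncertain.

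The P-TEFb kinase subunit was the most abundant of the 7 mRNAs. Cdk9 (ENSMUSG00000009555.16, chromosome 2, 32705784 to 32713076, minus strand) had 2551 and 1612 reads, or 123.10 and 63.31 TPM. Its mean of 93.2 ± 42.3 TPM (SD, n = 2) was higher than 95.7% of the 9770 protein-coding genes whose mean level was 1 TPM or more. Replicate 1 was the high library, and the scaled log2 ratio was -0.60 (95% counting interval -0.69 to -0.51), within the range of most genes. Over nuclear protein-coding genes alone, a scale that leaves 7SK and the other short RNAs out of the total, Cdk9 stood at 445.8 and 313.8 TPM. The miRNA genes Mir2861 and Mir3960 lie inside Cdk9 on the same strand.

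The 2 cyclin genes encode alternative regulatory subunits, since each P-TEFb complex carries 1 of them. Ccnt2 (ENSMUSG00000026349.14, chromosome 1, 127774164 to 127808061, plus strand) had 3759 and 2635 reads, or 53.23 and 33.03 TPM. Ccnt1 (ENSMUSG00000011960.12, chromosome 15, 98538689 to 98570923, minus strand) had 2013 and 1573 reads, or 29.59 and 19.89 TPM. Both were higher in replicate 1, with scaled log2 ratios of -0.45 for Ccnt2 (-0.52 to -0.38) and -0.29 for Ccnt1 (-0.39 to -0.19). Within a library Ccnt2 exceeded Ccnt1 by 1.80-fold and 1.66-fold in the gene table. In the second transcript table the ratio was 0.983 and 1.36, so which cyclin RNA was higher in replicate 1 depended on the table.

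Ccnt1 and Ccnt2 are close relatives in their coding sequence. Ccnt1-208 has 2172 coding bases (724 codons) and Ccnt2-201 has 2169 (723 codons), each over 9 coding exons, of which 8 have the same length in both. Over 2064 aligned bases 62.3% were identical. The longest exact run between these coding sequences was 20 bases and is shown in capitals. Whether reads were shared over it was not tested.
Ccnt1: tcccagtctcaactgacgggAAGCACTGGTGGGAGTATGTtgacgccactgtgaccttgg
Ccnt2: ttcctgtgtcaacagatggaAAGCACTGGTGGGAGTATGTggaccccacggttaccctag
The windows span coding bases 635 to 694 of Ccnt1 and 632 to 691 of Ccnt2, counted from the start codon. The deposited posterior SD of the count was 0.95 and 1.24 reads for Ccnt1 and 0 for Ccnt2, so almost no uncertainty was attached to how reads were assigned. 9330020H09Rik runs antisense over Ccnt1 and had 31.9 and 75.74 reads. Whether counting used strand is not stated, so reads of this pair may not have been told apart.

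Of the 2 HEXIM genes, which encode the inhibitors of the kinase on 7SK, Hexim1 was the higher in the gene table. Hexim1 (ENSMUSG00000048878.6, chromosome 11, 103116231 to 103119725, plus strand) had 741 and 932 reads, or 13.26 and 13.58 TPM. The deposited TPM of the libraries nearly coincided, at 13.42 ± 0.226 (SD, n = 2). Over nuclear protein-coding genes alone, Hexim1 stood at 48.0 and 67.3 TPM, higher in replicate 2. Its reads were likewise higher in replicate 2, with a scaled log2 ratio of 0.40 (0.26 to 0.54). Hexim2 (ENSMUSG00000043372.12, chromosome 11, 103132429 to 103139876, plus strand) starts 12703 bases after the end of Hexim1. It had 51 and 38 reads, or 3.23 and 1.36 TPM, and its log2 ratio of -0.36 had a counting interval of -1.0 to 0.28, which includes 0.

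The level of Hexim2 rested on the table. The second transcript table gave it 140 and 263 estimated counts, so that its log2 ratio was 0.72, opposite in sign. These were 2.75 and 6.93 times the counts of the gene table, while over all genes the median of that quotient was 1.31 and 1.64 and the 95th percentile 2.89 and 3.24. Transcript Hexim2-205 took 75.7 and 190 of the estimated counts, against 3.85 and 0 expected counts in the first transcript table. Hexim1 over Hexim2 was accordingly 4.11 and 9.99 in the gene table but 1.04 and 0.920 in the second transcript table. Hexim1 itself is a gene of 1 exon and 1 transcript.

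The coding sequences of the HEXIM pair differ in length and structure. Hexim1-201 has 1068 coding bases (356 codons) in 1 exon, and Hexim2-201 has 939 (313 codons) in 2 coding exons. Over 851 aligned bases 68.7% were identical. Their longest exact run, 14 bases, is shown in capitals.
Hexim1: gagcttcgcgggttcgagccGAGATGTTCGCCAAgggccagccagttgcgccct
Hexim2: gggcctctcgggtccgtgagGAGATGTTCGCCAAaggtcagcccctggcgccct
The windows span coding bases 545 to 598 of Hexim1 and 365 to 418 of Hexim2. The posterior SD of the count was 0 for both genes in both libraries.

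In the gene table, RNA for the remaining proteins of the 7SK particle lay below the protein-coding median of 7.985 TPM. The mean of Mepce exceeded 44.4% of the 9770 protein-coding genes with a mean of 1 TPM or more, and that of Larp7 20.1%. Mepce (ENSMUSG00000029726.16, chromosome 5, 137781906 to 137787655, minus strand), the capping methyltransferase, had 298 and 340 reads, or 6.01 and 7.21 TPM. Its scaled log2 ratio was 0.26 (0.03 to 0.48). Larp7 (ENSMUSG00000027968.11, chromosome 3, 127536714 to 127553349, minus strand), the protein of the 3′ end, had 89 and 71 reads, or 3.51 and 2.05 TPM. Its counting interval of -0.73 to 0.21 around -0.26 includes 0, and the second transcript table gave 0.06, so no direction is given for Larp7. Mepce exceeded Larp7 by 1.71-fold and 3.52-fold in the gene table and by 2.63-fold and 3.29-fold in the second. The miRNA genes Mir302a to Mir302d and Mir367 lie within Larp7 on the opposite strand.

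Kinase and inhibitor RNA stood in a different proportion in each library. Cdk9, Ccnt1 and Ccnt2 together exceeded both HEXIM genes by 12.5-fold in replicate 1 and 7.78-fold in replicate 2, and by 9.94-fold and 4.47-fold in the second transcript table. Cdk9 alone exceeded Hexim1 by 9.28-fold and 4.66-fold, close to the 9.96-fold and 4.50-fold of the second table. Cdk9 over the sum of the cyclins stayed nearer to parity, at 1.49 and 1.20, or 1.04 and 0.930. 7SK exceeded the 7 mRNAs together by 532-fold in replicate 1 and 1835-fold in replicate 2 in the gene table, and by 370-fold and 1062-fold in the second. Within-library ratios do not depend on the scaling between libraries, and both tables put replicate 1 higher for kinase over inhibitor and replicate 2 higher for 7SK. These are amounts of nuclear RNA, which include unspliced transcripts, and not of protein. In bulk RNA, fewer cells with a transcript and less of it per cell cannot be told apart.

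Each mRNA gene apart from Hexim1 was divided among several annotated transcripts. Classes are those of the annotation, and shares are the deposited percent of a gene's TPM, for replicates 1 and 2. A retained-intron transcript is one annotated with an intron left in, and a transcript of the nonsense-mediated decay class has an early stop codon. In nuclear RNA, reads from unfinished transcripts can fall on introns, and their part in these shares was not tested.

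Cdk9 stood out by transcripts of the nonsense-mediated decay class, which held 24.94% and 30.95%. The mean lay above that of 86.8% of the 3106 genes with such a transcript, whose median was 5.55%. Nearly all of it was Cdk9-208, with 23.17% and 29.82%, which has 183 coding bases (61 codons). The share was 15.5% by expected counts and 32.4% by the second transcript table, as means of the libraries. Retained-intron transcripts of Cdk9 held 5.32% and 4.76%, lower than in most of the 6215 genes with one, whose median was 25.2%.

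The coding transcripts of Cdk9 use different first exons. Cdk9-201, with 1116 coding bases (372 codons), held 23.45% and 30.83%. Cdk9-202, with 963 coding bases (321 codons), held 44.56% and 30.84%. In the first transcript table Cdk9-202 was thus the major transcript in replicate 1, while the pair was level in replicate 2. By TPM of the second table the pair was not level in replicate 2. Cdk9-201 held 26.4% and 41.7% there, and Cdk9-202 held 32.0% and 10.9%, in replicates 1 and 2. The second transcript table gave 957 and 1183 estimated counts to Cdk9-201 and 1032 and 276 to Cdk9-202, so in both tables Cdk9-202 had fewer counts in replicate 2.

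Both cyclin genes had large shares of TPM outside the coding class, and their size depended on the table and on the measure. For Ccnt2 the retained-intron share was 40.83% and 47.38%, its mean above that of 80.4% of genes, and the coding share was 33.58% and 31.44%. In TPM, the mean retained-intron share of Ccnt2 was 44.1% in the first transcript table and 52.6% in the second. By expected counts of the first table, which are not corrected for length, the mean was 20.4%. Over 9748 genes the median coding share was 75.4%, and the lower quartile was 55.1%. Ccnt2-206, a retained-intron transcript, held 14.76% and 23.03%. Ccnt2-207, of the class processed transcript, held 25.59% and 21.18%. The full-length coding Ccnt2-201 held 0% and 3.07%, and Ccnt2-202, with 1971 coding bases, 33.58% and 28.37%.

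For Ccnt1 the coding share was 46.16% and 43.91%, all of it Ccnt1-208. Ccnt1-202, a retained-intron transcript, held 28.41% and 25.12%. Ccnt1-203, a short transcript of the class processed transcript, held 21.23% and 25.69% from only 48.79 and 50.95 reads. In TPM, the mean coding share of Ccnt1 was 45.0% in the first transcript table and 26.9% in the second, where retained-intron transcripts held 68.1%. By expected counts of the first table, which are not corrected for length, the coding class held a mean of 83.3%. The coding share of Ccnt1 therefore depended on both the table and the measure used.

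The other members had simpler or less certain make-ups. Larp7-201, the main coding transcript, held 64.51% and 64.92%, and retained-intron transcripts held 26.42% and 35.08% of Larp7. Mepce was wholly Mepce-201 in replicate 1, while in replicate 2 Mepce-201 held 75.17%. The retained-intron transcript Mepce-203 held 21.93% there from 8.42 reads. In the second transcript table Mepce-201 held 51.3% and 63.6%, so replicate 2 was there the higher. For Hexim2 the main transcript was Hexim2-202 in replicate 1, with shares of 52.82% and 6.25%, and Hexim2-201 in replicate 2, with 18.39% and 72.61%. The gene had 51 and 38 reads in all, so its shares are imprecise.

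**Figure D4:**
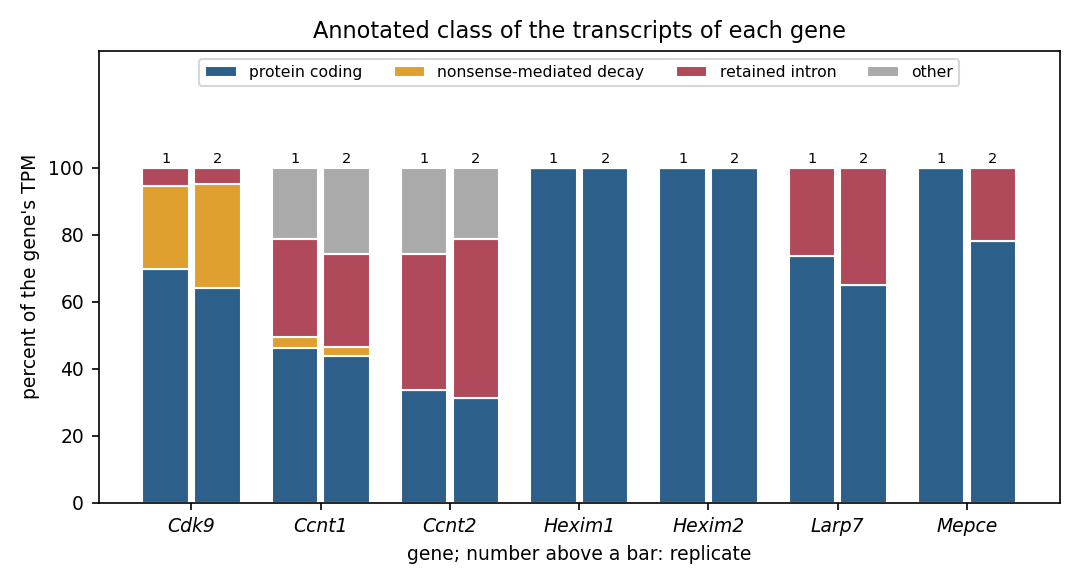
Percent of each gene's TPM in each annotated transcript class, per library, from the deposited isoform percentages. Cdk9 carries 24.94% and 30.95% in the nonsense-mediated decay class, and Ccnt2 40.83% and 47.38% in retained-intron transcripts.

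Of 39 further genes of pausing and pause release, 37 were detected in both libraries (94.9%), against 42.4% of nuclear protein-coding genes. Ell3 and Eaf2 were not, with 23 and 10 reads and 5 and 4 reads. The median of the 39 was 9.545 TPM. With a mean of 50 counts or more, 36 could be compared between the libraries: 21 ratios were below 0 and 15 above, with a median of -0.06. None was beyond 2-fold higher in replicate 2 and 1 was lower, Ell2, 2.78% of the 36 beside the 2.48% of nuclear protein-coding genes that were lower.

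All 6 pausing factor genes were detected, at 3.63 to 24.9 TPM. They encode the subunits of NELF and DSIF, the complexes that hold the polymerase and that P-TEFb phosphorylates. Nelfcd stood at 32.05 and 17.76 TPM and Supt5, the large DSIF subunit, at 29.94 and 17.28 TPM. Nelfb stood at 6.31 and 4.47 TPM. Polr2a, the largest subunit of the polymerase itself, stood at 27.73 and 29.60 TPM from 2730 and 3664 reads, a scaled log2 ratio of 0.49.

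Of the genes that recruit P-TEFb or carry it in the super elongation complex, 8 of 10 were detected. Aff4 and Aff1, the scaffolds of that complex, stood at 63.03 and 47.27 TPM and at 66.88 and 39.13 TPM. Both genes were within the range of Cdk9 and the cyclins. Ell2, an elongation factor of the complex, had 1512 and 620 reads, or 31.17 and 9.76 TPM. Its scaled log2 ratio was -1.22, and -0.66 in the second transcript table, where it was within 2-fold.

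The PAF complex and Spt6 travel with the released polymerase, and all 7 of their genes were detected. Paf1 stood at 86.10 and 45.89 TPM, Cdc73 at 25.83 and 16.15 TPM and Supt6 at 21.13 and 13.56 TPM. All 6 genes of other transcription kinases were detected too. Cdk12 and Cdk13, which phosphorylate the tail of the polymerase later in elongation, stood at 66.04 and 41.26 TPM and at 41.39 and 24.87 TPM. Ccnk, their cyclin, was lower at 8.90 and 10.91 TPM.

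The 9 genes of other 7SK-binding proteins and release factors were all detected, up to 517 TPM. Hnrnpa2b1 and Hnrnpa1, RNA-binding proteins found on 7SK that is free of P-TEFb, stood at 702.02 and 332.39 TPM and at 64.79 and 36.69 TPM. Srsf2, a splicing factor that also binds 7SK at promoters, stood at 95.34 and 80.50 TPM. Replicate 1 was the high library in TPM for each of these. Scaled log2 ratios were -0.76 for Hnrnpa2b1, -0.38 for Hnrnpa1 and -0.02 for Srsf2. The counting interval of Srsf2, -0.10 to 0.06, includes 0, so no direction is given for Srsf2. Hnrnpa2b1 was above every protein-coding member of the 7SK particle and P-TEFb in both libraries.

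**Figure D5:**
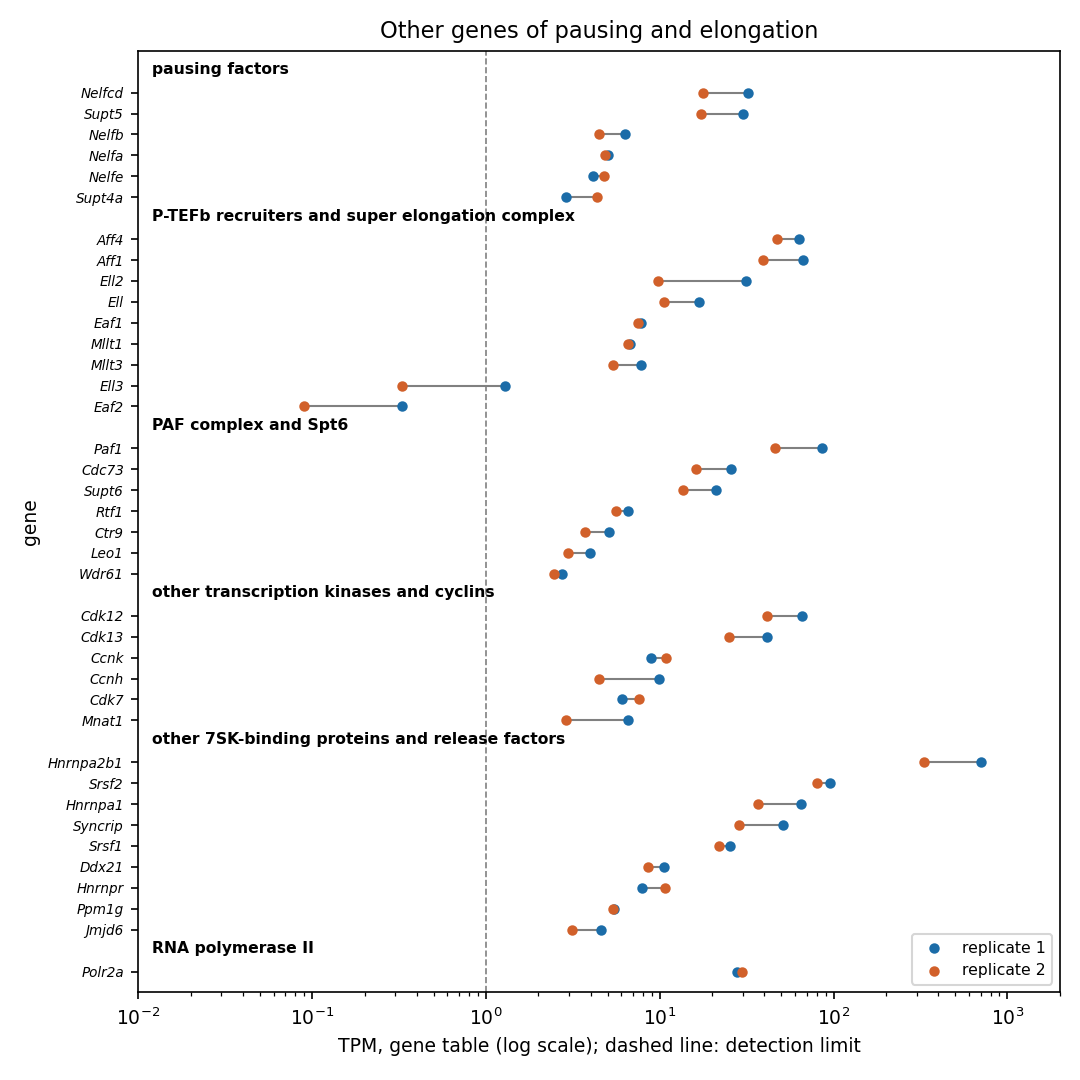
TPM of 38 of the further pausing and pause-release genes in each library, grouped by role, on a log axis. Hnrnpa2b1 is highest at 702.02 and 332.39 TPM, and Ell3 and Eaf2 fall under 1 TPM in at least 1 library.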

How the data were processed

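Each library came with a gene table and 2 transcript tables, built on mm10 and GENCODE M21 per the deposited text files. The quantification tools and the use of strand are not stated there. The deposited gene tables hold expected counts and TPM, per the file headers. The first deposited transcript table, made from a transcriptome alignment, adds the percent of its gene that each transcript makes up. The second, made directly from the reads, holds TPM and estimated counts by its deposited headers. Estimated counts and TPM were summed over transcripts.

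Annotated genes held 15846212 and 14874879 expected counts. Spike-ins and numbered features, 1.19% and 0.213% of expected counts, were left out. Counts were rounded, and TMM scaling (edgeR 4.0.16 under R 4.3.3) shifted log2 ratios by 0.07. Ratios have 95% exact counting intervals and shares have Wilson intervals. Genes beyond 2-fold needed a mean of at least 50 counts. Copies of 7SK were sought with blastn 2.17.0 (word size 11, e-value limit 1e-05). The ratio script was tested on simulated data. With 1 group, no condition was compared and no p-value computed.

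Named genes were the 8 members, the 3 highest of each subgroup of the pause-release list with any beyond 2-fold, all structural RNAs, and the 3 genes nearest to Rn7sk in ratio. Genes that the rule names but the text leaves out are not reported here. Genes overlapping members, copies of Rn7sk and genes not detected were named after their values were seen. Members and lists were chosen with earlier results of these data known.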

Additional observations from a re-analysis of the deposited data

How the results depend on the processing

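All 8 members were detected under every setting except a limit of 5 TPM, which left 6. In each setting 1 member, Rn7sk, was beyond 2-fold. Of the 39 pause-release genes 37 were detected, 38 with TPM over nuclear protein-coding genes, 37 to 38 when either replicate was left out and 27 at 5 TPM. The 1 pause-release gene beyond 2-fold became 4 by the ratio of deposited TPM, 0 by estimated counts of the second transcript tables and 3 without a limit on the mean count. By those estimated counts, Hexim2 and Larp7 changed sign, to 0.72 and 0.06. The cause was not tested. With DESeq2 1.42.0 size factors, library size alone, or TMM over genes averaging 10 counts or more, 7 of the 8 log2 ratios stayed within their counting interval. By the ratio of deposited TPM 7 of the 8 left it, among them Cdk9 at -0.96, Ccnt1 at -0.57 and Hexim1 at 0.03, and by the estimated counts 5 did. No paired analysis was possible because there was 1 group. With 2 libraries of 1 group, an SD rests on 2 values, and at 38 to 89 reads Hexim2 and Larp7 allow no direction between them.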
